A study of Homo sapiens with 4 samples.

Results

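The genes described here are named for the protein subunits of the mitochondrial ribosome. Every row was taken whose symbol began with MRPL or MRPS, followed by a number and an optional A, B or C. At least 10 counts in each library were required. Of 23228 gene symbols in the count tables, 76 matched the pattern and 75 met the count limit. The 1 excluded, MRPS24, had raw counts of 1 and 2 in the vehicle libraries and 2 and 3 in the EC359 libraries. The cells were ES2, an established human ovarian cancer (OCa) line grown in RPMI with serum. They were treated for 12 h with vehicle (0.1% DMSO) or with 10 nM EC359, an inhibitor of the leukemia inhibitory factor receptor LIFR, and each treatment had 2 RNA-seq libraries. The study asked which transcripts change when LIFR is inhibited. All libraries came from 1 cell line. The paper calls the replicates biologically independent, while the labels do not say whether they were separate cultures, and p-values measure the spread between these libraries.

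Mitochondria carry their own ribosome, which translates the few messenger RNAs of mitochondrial DNA into core subunits of the respiratory chain and ATP synthase. Its RNAs are made inside the organelle, but its proteins are all encoded in the nucleus, translated in the cytosol and imported. The large subunit (MRPL) forms peptide bonds, and the small subunit (MRPS) binds the messenger RNA and decodes it. Many of these proteins descend from bacterial ribosomal proteins, and others are particular to mitochondria.

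Promoter windows were read from RefSeq (GRCh38.p14, 250 bases before to 50 bases after the annotated start, 300 bases in all) for 66 of the 75 genes. Windows are shown for MRPL24, the 1 gene past the significance threshold, for MRPS34, a small subunit gene among the 12 with the lowest p, and for MRPL36, whose window held matches to 3 motifs of factors known to regulate nuclear genes for mitochondria. Capitals mark matches on either strand to GCGCANGCG (NRF1), CCGGAAG (ETS factors such as GABPA), AANATGGCG (YY1), CACGTG (the E-box bound by MYC and related factors) and ACTACAANT. The last, the start of the motif known for ZNF143 and THAP11, was added after the letters of the MRPL24 window had been read. Each sequence runs 5′ to 3′ on the gene's strand, which is the minus strand for all of them.
MRPL24, chr1:156741039-156741338: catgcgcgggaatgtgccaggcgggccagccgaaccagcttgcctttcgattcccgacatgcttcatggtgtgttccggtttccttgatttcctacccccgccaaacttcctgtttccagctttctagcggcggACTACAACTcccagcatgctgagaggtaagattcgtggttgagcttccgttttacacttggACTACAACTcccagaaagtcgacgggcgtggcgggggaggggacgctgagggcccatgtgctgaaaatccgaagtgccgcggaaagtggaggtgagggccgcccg
MRPS34, chr16:1773085-1773384: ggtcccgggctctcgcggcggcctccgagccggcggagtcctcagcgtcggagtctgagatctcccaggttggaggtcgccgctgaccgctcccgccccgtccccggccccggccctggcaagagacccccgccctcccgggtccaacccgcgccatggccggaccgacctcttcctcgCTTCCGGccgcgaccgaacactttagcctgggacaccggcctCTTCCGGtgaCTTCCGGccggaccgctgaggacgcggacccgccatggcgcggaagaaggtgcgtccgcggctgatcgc
MRPL36, chr5:1799788-1800087: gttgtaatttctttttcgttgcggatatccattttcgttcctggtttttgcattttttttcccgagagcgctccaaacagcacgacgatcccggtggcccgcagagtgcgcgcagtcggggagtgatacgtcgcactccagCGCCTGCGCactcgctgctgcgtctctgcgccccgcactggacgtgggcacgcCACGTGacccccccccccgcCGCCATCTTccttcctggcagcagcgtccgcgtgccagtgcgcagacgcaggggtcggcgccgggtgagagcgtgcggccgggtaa

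Counted from the annotated start, the MRPL24 window held ACTACAANT from -116 to -108 and again from -55 to -47, and none of the other motifs. The MRPS34 window held the ETS letters from -71 to -65, from -29 to -23 and from -19 to -13. The MRPL36 window held the NRF1 letters from -109 to -101, the E-box from -56 to -51 and the YY1 letters from -36 to -28. Windows of MRPL22 and MRPL37 held the same 3 motifs, so this was not particular to MRPL36. MRPL36 had a log2 fold change of -0.16 (adjusted p = 0.254, edgeR quasi-likelihood test). A match describes letters in the window and not binding. Over the 66 genes with a window, the ETS letters occurred in 29 (43.9%), against 22.5% of the tested genes with a window and 10.3% of all promoter windows. The YY1 letters occurred in 17 (25.8%), against 8.63% of tested genes and 3.19% of all windows. NRF1 letters were in 13 (19.7%, against 17.3% and 7.52%), the E-box was in 9 (13.6%, against 12.8% and 7.26%) and ACTACAANT was in 3 (4.55%, against 3.21% and 1.43%). The median log2 fold change was -0.03 with the ETS letters and -0.01 without, and -0.03 with the YY1 letters and -0.02 without. It was -0.03 with the NRF1 letters and -0.02 without, and -0.07 with the E-box and -0.02 without.

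The libraries held 25603886 and 25572494 counts for vehicle and 31707553 and 29914788 for EC359. KRT7 had 6679 to 8979 counts and VIM 135855 to 153104, and VIM had a log2 fold change of -0.17 (adjusted p = 0.0135, edgeR). Of the endothelial markers CDH5 had 3118 to 3920 counts and PECAM1 0 to 2, while the immune markers PTPRC, CD3E and CD14 had at most 2 counts in any library. Other ovarian epithelial markers were low or absent, since PAX8 had 24 to 41 counts, EPCAM 0 to 2 and MUC16 0. LIFR itself, the protein that EC359 inhibits, had 1372 and 1326 raw counts with vehicle and 1823 and 1627 with EC359, a log2 fold change of 0.06 (adjusted p = 0.555, edgeR quasi-likelihood test).

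The genes together took 0.5349% and 0.5409% of all counts in the vehicle libraries and 0.5368% and 0.5411% in the EC359 libraries, so the share overlapped between treatments. The ratio of the subunits overlapped too, with 51.5 and 50.25 small subunit counts per 100 large subunit counts in vehicle and 51.54 and 50.37 with EC359. Single genes had 364 to 7680 raw counts. The normalized count (raw counts scaled for library size by the trimmed mean of M-values, TMM) averaged 423.2 to 6913 over the vehicle libraries, with a median of 1665 over the genes.

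MRPL24 was lower with EC359, and the share of called genes was near that of all genes. With a call at an adjusted p under 0.01 in edgeR's quasi-likelihood test, Benjamini-Hochberg adjusted over 12706 tested genes, 1 of the 75 was lower and 0 were higher. Over all tested genes 101 (0.795%) were lower and 38 (0.299%) were higher. At an adjusted p under 0.05 the counts remained 1 lower and 0 higher, against 2.64% and 1.68% of all tested genes. At an unadjusted p under 0.05, 9 of the 75 (12%) were lower and 3 (4%) were higher, against 11% and 10.7% of all tested genes. DESeq2, which gave an adjusted p for 74 of the 75 genes, called 1 lower and 0 higher, against 2.12% and 0.748% of the 8025 genes to which it gave one. Both EC359 libraries lay below both vehicle libraries for 27 genes (36%) and above them for 11 (14.7%), against 25.4% and 26.1% of all tested genes, and 37 genes overlapped.

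The median log2 fold change of the 75 genes was -0.02 (quartiles -0.08 and 0.04), beside 0.00 for all tested genes (quartiles -0.08 and 0.10). By sign, 47 were lower and 28 higher. Scaling to total counts alone gave 36 lower and 39 higher, and over all genes it gave 68 lower and 52 higher calls. That scaling also moved the median log2 fold change of all tested genes, from 0.003 to 0.027. Standard errors ranged from 0.033 to 0.115 with a median of 0.055. Within each library, the median deviation of the 75 genes from their mean over libraries was 0.002 and 0.019 (log2) with vehicle and -0.017 and -0.011 with EC359. The treatments did not overlap in this measure, and the vehicle libraries were farther apart than the nearest vehicle and EC359 libraries. With a trend on transcript length removed, the median log2 fold change of the 75 genes was 0.003. The absolute log2 fold change was under 0.1 for 55 genes and over 0.2 for 3, MRPL24, MRPL12 and MRPL41.

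**Figure D1:**
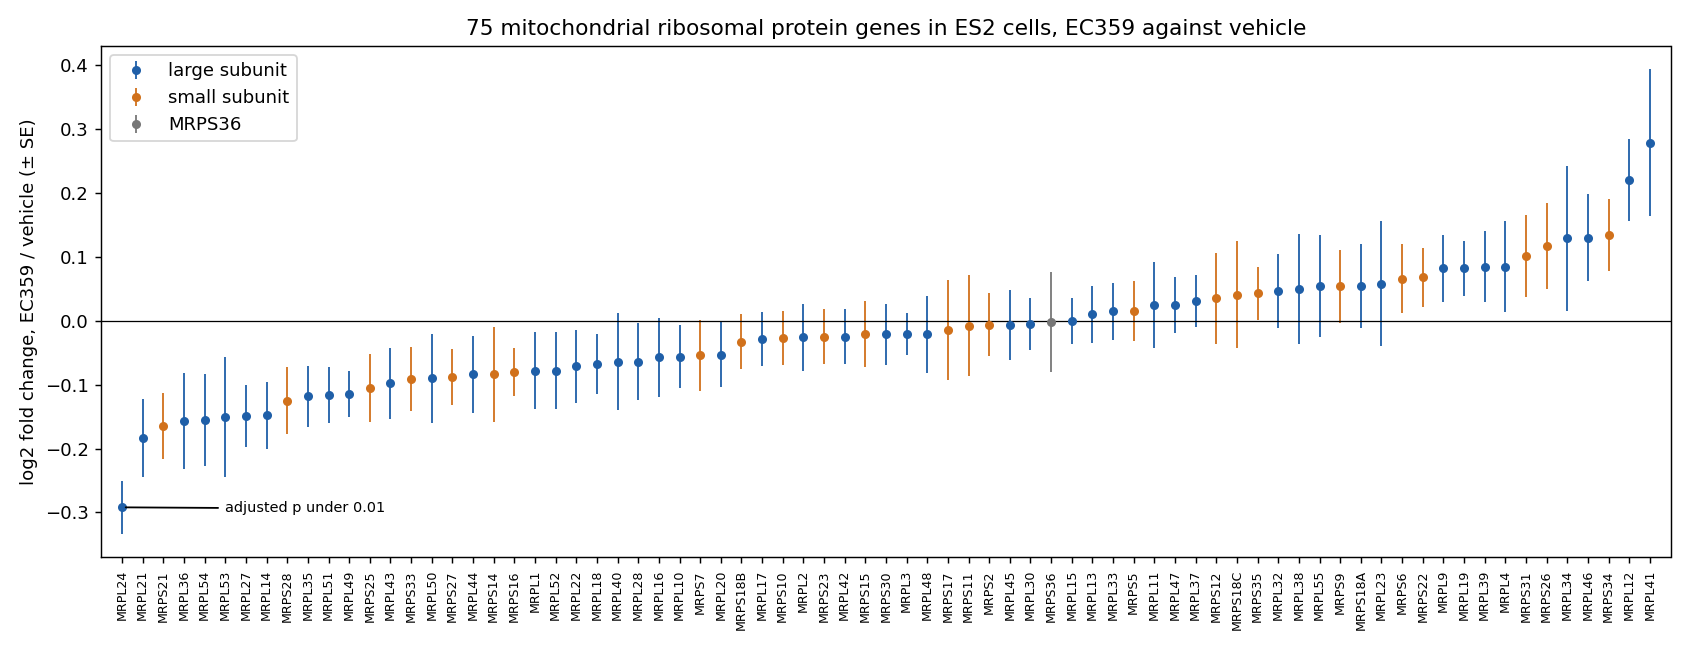
Log2 fold change of EC359 against vehicle (vertical axis, points, with bars of 1 SE) for each of the 75 genes, ordered by value and coloured by subunit. Values ran from -0.29 for MRPL24 to 0.28 for MRPL41, and MRPL24 was the 1 gene with an adjusted p under 0.01.

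MRPL24 encodes a large subunit protein whose bacterial counterpart, uL24, binds ribosomal RNA early in assembly. Its normalized counts were 3453 and 3583 with vehicle and 2921 and 2826 with EC359. The groups were far apart, with each EC359 library below each vehicle library. The log2 fold change was -0.29 ± 0.04 (SE), a change of -18.3%, with an adjusted p of 0.0055 (edgeR quasi-likelihood test, n = 2 per group). The gene lies on the minus strand of chromosome 1 at 156707095 to 156711382 (GRCh37), none of its 50-base windows occurred elsewhere in the annotated transcripts, and no exon of another gene with a row overlapped it on the opposite strand. The size of the MRPL24 difference held without either EC359 library, but the call did not. Without EC359 replicate 1 the log2 fold change was -0.32 (adjusted p = 0.275, edgeR), and without EC359 replicate 2 it was -0.27 (adjusted p = 0.295), and over all genes those fits made 0 and 2 calls. With a trend on transcript length removed MRPL24 was at -0.23 (adjusted p = 0.0112), and without the filter on low counts at -0.29 (adjusted p = 0.0107).

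The genes next in order of p did not pass the adjusted threshold. MRPL12, the counterpart of the bacterial stalk protein L7/L12, also binds the mitochondrial RNA polymerase. It had normalized counts of 2882 and 3300 with vehicle and 3442 and 3762 with EC359, so the treatments did not overlap, but the gap between vehicle replicates was larger than that between the nearest libraries of the treatments. Its log2 fold change was 0.22 ± 0.06 (SE; adjusted p = 0.0785, edgeR quasi-likelihood test). MRPL41, a large subunit protein particular to mitochondria, had 590.2 and 722.2 with vehicle and 711.1 and 883.3 with EC359. These ranges overlapped, and the log2 fold change of 0.28 ± 0.12 (SE) had an adjusted p of 0.192 (edgeR). Both values turned on single libraries. Without vehicle replicate 2, MRPL12 was at 0.32 (adjusted p = 0.000409) and MRPL41 at 0.43 (adjusted p = 0.00909, edgeR), which were calls, and without vehicle replicate 1 they were at 0.13 and 0.14. MRPL41 was at 0.43 without EC359 replicate 1 and at 0.12 without EC359 replicate 2, and was called in neither. MRPS34, a small subunit protein with no bacterial counterpart, had 1878 and 2015 with vehicle and 2059 and 2215 with EC359, which did not overlap. Its log2 fold change was 0.13 (adjusted p = 0.195, edgeR), and part of its sequence overlaps EME2 on the opposite strand.

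Among genes with lower values, MRPL49 had 4622 and 4677 normalized counts with vehicle and 4339 and 4250 with EC359, and the groups did not overlap. Its product is a large subunit protein particular to mitochondria, and its log2 fold change was -0.12 ± 0.04 (SE; adjusted p = 0.0982, edgeR). MRPS21, the counterpart of a small bacterial protein, bS21, had 2363 and 2204 with vehicle and 2093 and 1981 with EC359. Its log2 fold change was -0.17 (adjusted p = 0.102, edgeR), again without overlap. MRPL27, counterpart of bL27, which reaches towards the peptidyl transferase centre in bacteria, had 1899 and 1909 with vehicle and 1689 and 1745 with EC359. The vehicle libraries nearly coincided, and the log2 fold change was -0.15 (adjusted p = 0.107, edgeR). MRPL21, counterpart of bL21, had 1341 and 1322 with vehicle and 1122 and 1223 with EC359, which is a log2 fold change of -0.18 (adjusted p = 0.114, edgeR).

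The other genes with an unadjusted p under 0.05 were all separated between treatments. MRPL14, counterpart of uL14 at the face where the subunits meet, had 1664 and 1605 normalized counts with vehicle and 1505 and 1445 with EC359 (log2 fold change -0.15). MRPL51, a large subunit protein particular to mitochondria, had 3882 and 3611 with vehicle and 3455 and 3459 with EC359 (log2 fold change -0.12). The vehicle replicates of MRPL51 were thus farther apart than its EC359 replicates. MRPL35, counterpart of bL35, had 2335 and 2240 with vehicle and 2149 and 2065 with EC359 (log2 fold change -0.12). MRPS28, a small subunit protein, had 1592 and 1542 with vehicle and 1432 and 1443 with EC359 (log2 fold change -0.13). Adjusted p-values of MRPL14, MRPL51, MRPL35 and MRPS28 ran from 0.142 to 0.195 (edgeR quasi-likelihood test). With the length trend removed, the log2 fold changes of MRPL27, MRPL21, MRPL14, MRPL51 and MRPS28 were -0.07, -0.11, -0.10, -0.06 and -0.06. Those of MRPL49, MRPS21 and MRPL35 were -0.10, -0.12 and -0.13 in that fit.

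**Figure D2:**
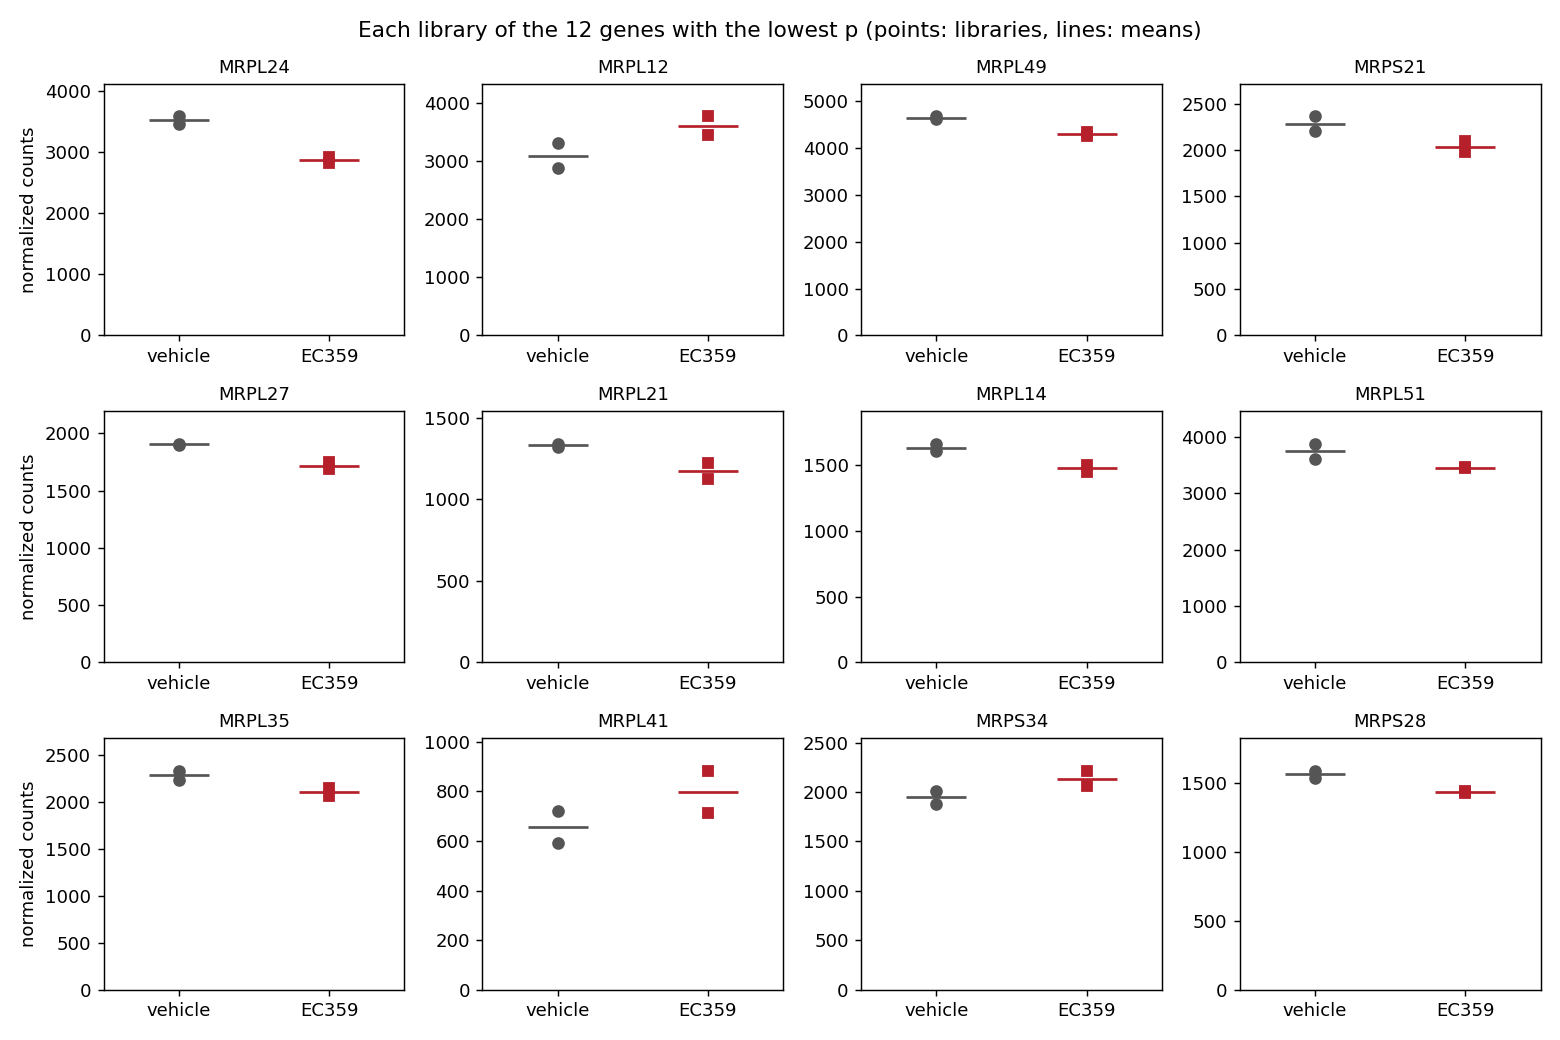
Normalized counts (vertical axes, from 0) of each library (points) and group means (lines) with vehicle and EC359 for the 12 genes with the lowest p. For MRPL24 the vehicle libraries were at 3453 and 3583 and the EC359 libraries at 2921 and 2826, and MRPL41 was the 1 gene of the 12 whose groups overlapped.

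The genes were also grouped by subunit and by the origin of their proteins, and differences between these groups were not tested. For the large subunit (49 genes) the log2 fold changes had their median at -0.02. By sign 31 were lower and 18 higher, and the 1 call was among them. Those of the small subunit, 25 genes, had a median of -0.01, with 15 lower and 10 higher, and 0 were called. At an unadjusted p under 0.05, 7 of the 49 large subunit genes were lower and 2 higher, and 2 of the 25 small subunit genes were lower and 1 higher. Over all tested genes, 11% were lower and 10.7% higher at that threshold. Large subunit proteins with a bacterial counterpart (30 genes) had a median of -0.02, and those particular to mitochondria (19) also had -0.02. For the small subunit these medians were -0.01 over 15 genes and 0.01 over 10.

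Several genes have roles or positions that their symbols do not show. MRPS30 is named for the small subunit but sits in the large one, and it had 2075 and 1977 normalized counts with vehicle and 1974 and 2020 with EC359. MRPS36 was counted in neither subunit here, since its product was classed as not a stable part of the mitochondrial ribosome. That product is a component of the 2-oxoglutarate dehydrogenase complex. MRPS36 had 655.7 and 584.2 with vehicle and 608.5 and 630.3 with EC359. Both overlapped between treatments, with log2 fold changes of -0.02 and 0.00. MRPS18A, MRPS18B and MRPS18C are paralogs of each other and homologs of the bacterial protein bS18, and MRPS18A sits in the large subunit. In the groups by origin, MRPS18C was counted with a bacterial counterpart, and MRPS18A and MRPS18B as particular to mitochondria. MRPS18B was the most abundant of them, with 5074 and 4686 normalized counts with vehicle and 4830 and 4706 with EC359. MRPS18A had 746.9 and 790 with vehicle and 803.1 and 792.8 with EC359, and MRPS18C had 404.6 and 441.7 with vehicle and 444 and 426.7 with EC359. The log2 fold changes of MRPS18A, MRPS18B and MRPS18C were 0.05, -0.03 and 0.04, with adjusted p-values of 0.681, 0.707 and 0.824 (edgeR quasi-likelihood test).

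Levels per kilobase of transcript differed more between genes than any gene differed between treatments. In vehicle libraries the 5 highest levels were 4172 normalized counts per kilobase for MRPL51, 4056 for MRPL33, 4047 for MRPL3, 3984 for MRPL24 and 3490 for MRPS18B. MRPL24, the gene called lower, thus ranked 4 of 75 by this level, and 12 of 75 per kilobase of coding sequence. MRPL33 and MRPL3, counterparts of bL33 and uL3, had log2 fold changes of 0.01 and -0.02 with EC359. The lowest levels were 273 for MRPS18C, 250 for MRPS14 and 203 for MRPL42, and these had log2 fold changes of 0.04, -0.08 and -0.02. The order depends on the transcript chosen, since the annotated canonical transcript of MRPL42 has 15557 bases, and per kilobase of coding sequence MRPL42 ranked 6 of 75 instead of 75.

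The genes lie on 21 chromosomes, so they do not form one locus, but many stand head to head with another gene. A protein-coding start on the opposite strand within 1000 bases was found for 25 of the 75 genes (33.3%), against 1592 of 11710 tested genes (13.6%). The median log2 fold change was -0.05 for the 25 and -0.02 for the others. Over all tested genes it was -0.008 with such a start and 0.007 without. Of the genes with the lowest p, MRPL49 stands 187 bases from FAU, whose product includes a cytosolic ribosomal protein, and FAU had a log2 fold change of -0.11 (adjusted p = 0.352, edgeR). MRPL14 stands 102 bases from TMEM63B, which had a log2 fold change of -0.13 (adjusted p = 0.389, edgeR). MRPL27 and MRPL21 were lower in both EC359 libraries, whereas their neighbours EME1 (45 bases away) and IGHMBP2 (59 bases away) had log2 fold changes of 0.09 and 0.06. MRPL51 stands 840 bases from NCAPD2, a condensin subunit, which had a log2 fold change of -0.17 (adjusted p = 0.0135, edgeR), and the exons of MRPL51 and NCAPD2 overlap on opposite strands. One such pair lies within the set, with MRPL46 and MRPS11 320 bases apart. MRPL46 had 718 and 705.5 normalized counts with vehicle and 804 and 753.5 with EC359, and its log2 fold change was 0.13 against -0.01 for MRPS11 (adjusted p = 0.297 and 0.973, edgeR).

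Differences between replicates followed the GC content of the transcript. Across the 75 genes, the log2 ratio of vehicle replicate 2 to replicate 1 had a Pearson correlation of 0.64 with GC content, and the ratio of EC359 replicate 2 to replicate 1 had 0.48. These are descriptions over genes that share libraries. The log2 fold change between treatments had a Pearson correlation of 0.20 with GC content, -0.04 with log2 length and -0.07 with log2 level. By rank (Spearman) these correlations were 0.10, -0.03 and -0.04. Over the 12001 tested genes with a known length they were -0.05, 0.13 and -0.15 by rank. Of the 9 genes over 60% GC, 8 were higher with EC359 (median log2 fold change 0.09, against -0.03 for the other 66), and vehicle replicate 2 was above replicate 1 for 9 of 9, against 35 of 66. The 3 higher genes with an unadjusted p under 0.05 were all among them, with 64.6% GC for MRPL12, 66.7% for MRPL41 and 64.6% for MRPS34, and MRPL24 had 54.6%. With the length trend removed, the log2 fold changes of MRPL12, MRPL41 and MRPS34 were larger, at 0.269, 0.365 and 0.183. With only a GC trend removed from each library, they were smaller than in the main fit, at 0.14 for MRPL12, 0.16 for MRPL41 and 0.06 for MRPS34. Calls over all genes rose to 662 lower (5.21%) and 430 higher (3.38%) in that fit, and those among the 75 genes were MRPL24 lower and MRPL12 higher.

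**Figure D3:**
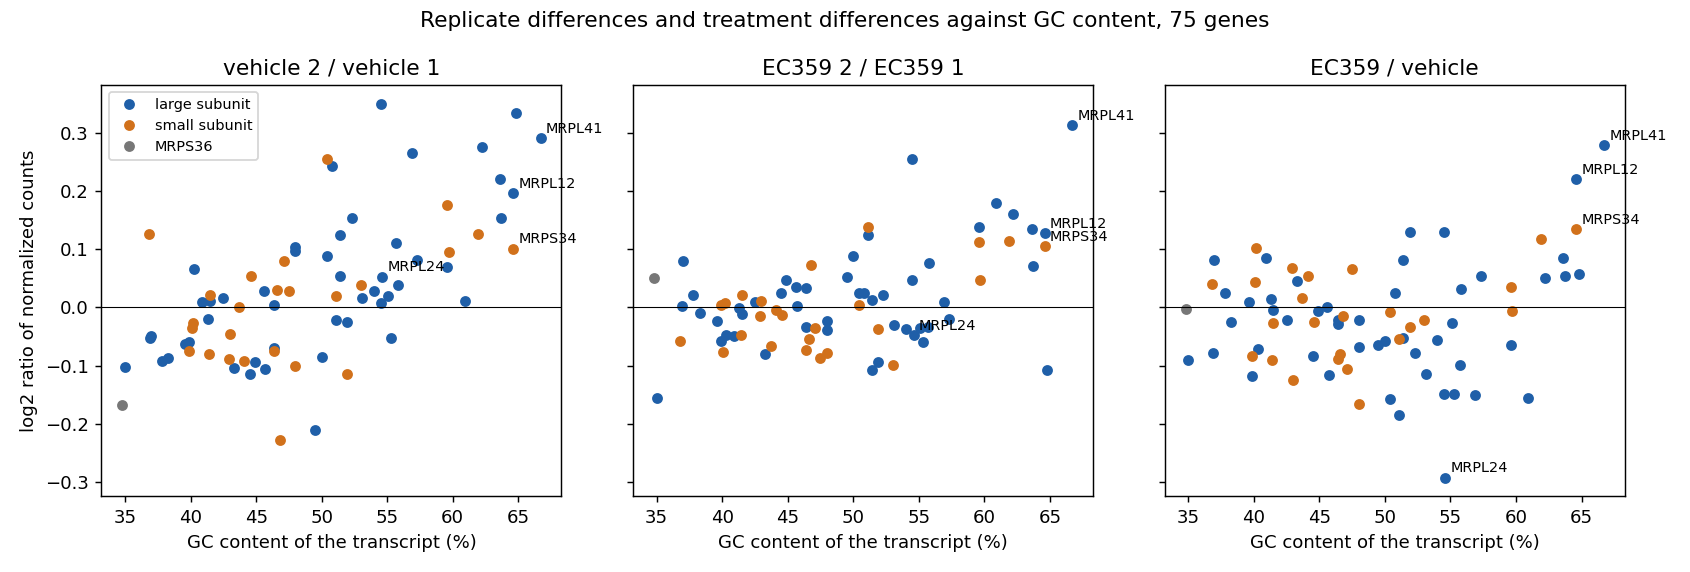
Log2 ratio of normalized counts (vertical axis) against GC content of the transcript in percent (horizontal axis) for the 75 genes, for the 2 vehicle replicates (left), the 2 EC359 replicates (middle) and EC359 against vehicle (right). The correlations were 0.64, 0.48 and 0.20, and MRPL41, MRPL12 and MRPS34 lay at the GC-rich end of each panel.

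Genes that act with the mitochondrial ribosome were described in the same fit, by lists written from general knowledge. Beside the counts of each list, 11% of all tested genes were lower and 10.7% higher at an unadjusted p under 0.05. Of the 7 mitoribosomal proteins with other names, 0 were called, 1 was higher and 0 lower at an unadjusted p under 0.05, and the median log2 fold change was 0.04. GADD45GIP1, a large subunit protein, had 1050 and 1248 normalized counts with vehicle and 1279 and 1378 with EC359 (log2 fold change 0.21, adjusted p = 0.165, edgeR), and AURKAIP1, of the small subunit, had a log2 fold change of 0.16 (adjusted p = 0.318). Of 23 assembly factors tested, 0 were called, 3 were higher and 0 lower at an unadjusted p under 0.05, and the median was -0.01. The lowest p-values there belonged to C7orf30 (now MALSU1, which acts on the large subunit), with 929.2 and 959.2 with vehicle and 1082 and 1098 with EC359 (log2 fold change 0.21, adjusted p = 0.0756), and GTPBP10, a GTPase of large subunit assembly (0.14, adjusted p = 0.165). Of 15 translation factors 0 were called, with a median of 0.00, 2 lower and 4 higher at an unadjusted p under 0.05. GFM1, an elongation factor, had a log2 fold change of 0.11 (adjusted p = 0.0977), and MTRF1L, a release factor, had -0.25 (adjusted p = 0.151). Of 20 mitochondrial aminoacyl-tRNA synthetase genes 0 were called, 2 were lower and 1 higher at an unadjusted p under 0.05, with a median of 0.01. QRSL1, a subunit of the mitochondrial glutamyl-tRNA amidotransferase, had a log2 fold change of 0.20 (adjusted p = 0.0828).

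Of the 20 genes of mitochondrial transcription and RNA handling 0 were called, the median was -0.05, and 4 were lower and 0 higher at an unadjusted p under 0.05. Shares of all tested genes at that threshold were 11% lower and 10.7% higher. SLIRP, which with LRPPRC stabilizes mitochondrial messenger RNAs, had 1835 and 1702 normalized counts with vehicle and 1484 and 1487 with EC359, without overlap. Its log2 fold change of -0.25 had an adjusted p of 0.0301 (edgeR quasi-likelihood test), short of the threshold, and LRPPRC had 0.01. With the length trend removed SLIRP was at -0.14 (adjusted p = 0.189), whereas it was called with the GC trend removed (adjusted p = 0.000338) and in the exact test (adjusted p = 0.00179). TBRG4, a FASTK family protein, had -0.13 (adjusted p = 0.0964). Among 10 regulators of nuclear genes for mitochondria 0 were called, 1 was lower and 1 higher at an unadjusted p under 0.05, and the median was -0.05. NRF1, a transcription factor of many such genes, had 1008 and 952.5 with vehicle and 822.6 and 768.5 with EC359, also without overlap. Its log2 fold change was -0.30 (adjusted p = 0.0336, edgeR), and -0.31 with the length trend removed (adjusted p = 0.0226, edgeR). NRF1 was called with the GC trend removed (adjusted p = 0.00183) and in the exact test (adjusted p = 0.00217), but not in DESeq2 (adjusted p = 0.0544). The log2 fold change of YY1 was 0.10 (adjusted p = 0.208, edgeR).

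The genes that encode complex I, 39 subunits of the respiratory enzyme that holds several mitochondrially translated proteins, had a median of -0.05 and 0 calls, with 8 lower and 2 higher at an unadjusted p under 0.05. The cytosolic ribosomal proteins, 76 genes tested, had a median of -0.07, with 4 called lower, and 26 lower and 2 higher at an unadjusted p under 0.05. Over all tested genes 0.795% were called lower, and 11% were lower and 10.7% higher at that unadjusted p. The difference between these medians and that of the 75 mitochondrial ribosomal protein genes was not tested. Median transcript length differed between the groups, at 1260 bases for the 75 genes, 827 for cytosolic ribosomal proteins and 3384 for all tested genes. With the length trend removed the medians were 0.00 for the 75 genes, -0.03 for complex I and -0.02 for cytosolic ribosomal proteins.

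**Figure D4:**
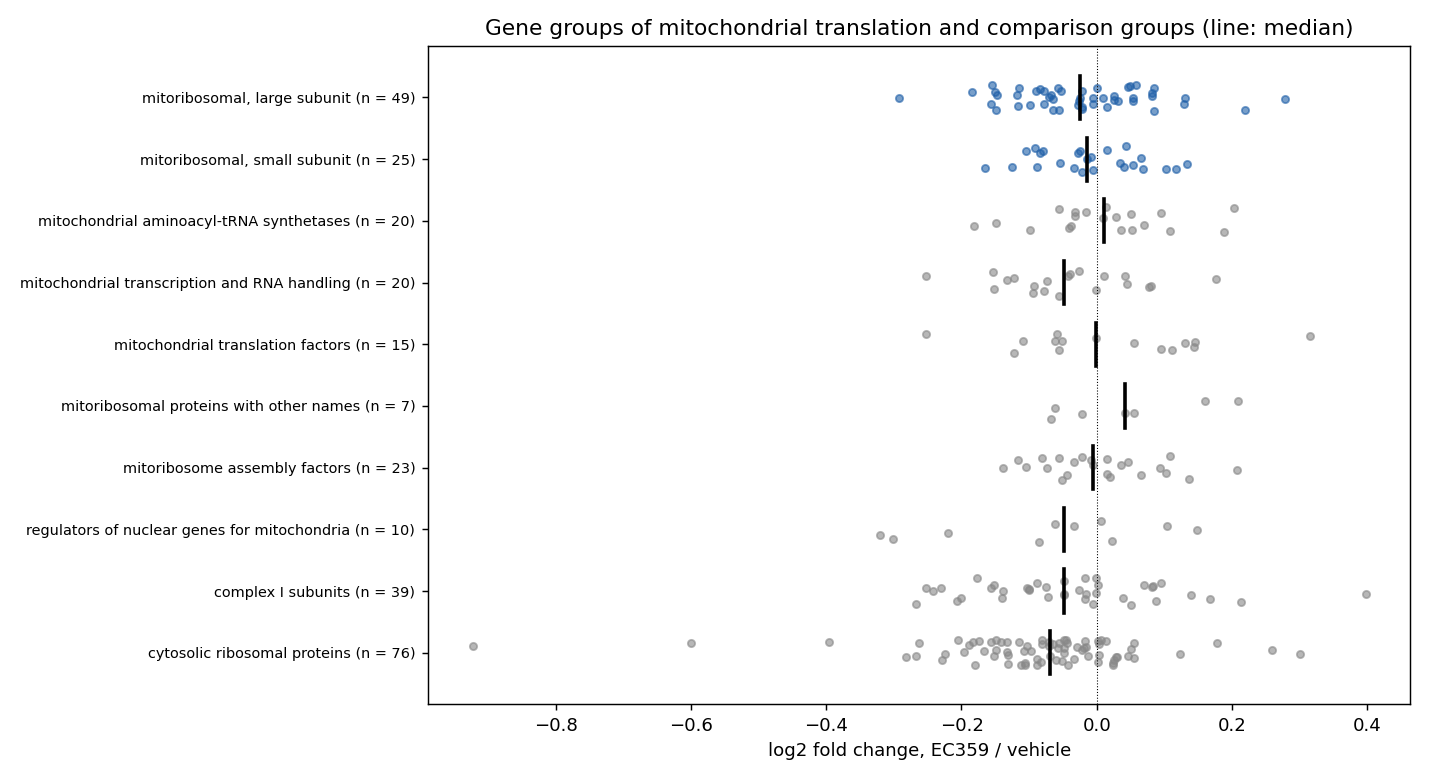
Log2 fold change of EC359 against vehicle (horizontal axis) for each gene (points) of the 2 mitoribosomal subunits and 8 other gene groups, with group medians as lines. Medians ran from -0.07 for cytosolic ribosomal proteins to 0.04 for mitoribosomal proteins with other names, and the 2 subunits had -0.02 and -0.01.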

How the data were processed

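Stranded poly(A) RNA-seq libraries (50 bp single-end reads) of ES2 cells were compared, 2 with vehicle and 2 with EC359. Each deposited table held whole-number counts of reads by symbol, not normalized. Per the submitters' processing notes, the authors used CASAVA 1.8.2, TopHat2 2.0.8b and HTSeq on hg19 with the RefSeq annotation. The strand setting of the counting is not given in the sources used here. Rows that name no gene were left out of totals and tests. Reads in no feature were 10.9% to 12% and ambiguous reads 0.852% to 0.879% of the sum of gene, no-feature and ambiguous reads. Non-uniquely aligned reads were not counted by the authors, so near-identical copies lose reads: 6 of the 75 genes had over 5% of their 50-base windows elsewhere, and 20 overlapped an opposite-strand gene.

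Counts were tested in edgeR 4.0.16 (R 4.3.3) with the quasi-likelihood test, TMM factors, low genes removed by filterByExpr (minimum count 10, total 15), no covariates and Benjamini-Hochberg adjustment over 12706 genes. A gene was called at an adjusted p under 0.01, the study's threshold, without a minimum fold. The code was tested on simulated data. Alternatives were other scaling factors, DESeq2 1.42.0, the exact test, limma voom 3.58.1, other filters and thresholds, a replicate block, removal of length and GC trends (lowess span 0.3) and omission of each library. Levels per coding length were added after seeing the data. Transcript lengths and gene positions came from GENCODE v44 lifted to GRCh37.

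The 75 genes and all lists were chosen with earlier results of these data known. Named genes were those called, the 12 with the lowest p, the 3 largest changes each way, the 5 highest and 3 lowest levels per length, MRPS18A, MRPS18B, MRPS18C, MRPS30, MRPS36 and MRPL12, and the 2 lowest p-values of each related list, of which 1 gene is not reported here. MRPL46, MRPS11, MRPL36, MRPL22, MRPL37, LRPPRC and the divergent neighbours were named after their values were seen.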

Additional observations from a re-analysis of the deposited data

How the results depend on the processing

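The 139 calls over all genes became 230 with DESeq2, 568 with the exact test, 61 without a filter, 549 at an adjusted p under 0.05, 2750 at an unadjusted p under 0.05, 1092 with the GC trend removed, 976 with length and GC trends removed, and 0 to 539 with a library left out (390 and 539 without vehicle replicates 1 and 2, and 0 and 2 without EC359 replicates 1 and 2). With the replicate number as a block there were 1539. The labels do not say that numbers pair libraries, and the correlation of replicate differences between treatments was 0.0987 over all genes and 0.34 over the 75. Genes of the mitochondrial ribosome called lower were 1, but 0 without a filter, 0 with the length trend removed, 9 at an unadjusted p under 0.05, 3 with the block and 0 to 1 with a library left out. Those called higher were 0, but 3 at an unadjusted p under 0.05, 2 with the block, 1 with the GC trend removed, 1 with length and GC trends removed and 0 to 2 with a library left out. Their median log2 fold change of -0.02 became 0.00 with total counts, where the median of all tested genes rose from 0.003 to 0.027. The median of the 75 genes was 0.00 with the length trend removed, 0.01 with both trends removed, and -0.035 to -0.013 with a library left out. Where 1 library was left, it was assumed to vary like the other group. The causes were not tested.

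Directions near 0 reversed. With total counts MRPL3, MRPS30 and MRPS36 were at 0.003, 0.003 and 0.022. MRPS36 was at 0.000 with voom, 0.030 with the length trend removed, 0.005 with both removed, and 0.085 and 0.023 without vehicle replicate 1 or EC359 replicate 1. MRPS30 was at 0.000 with the length trend removed, 0.010 with both removed and 0.015 without vehicle replicate 1. MRPL33 was at -0.003 with the GC trend removed and -0.001 without vehicle replicate 2. MRPS18B was at 0.021 with both trends removed, and without vehicle replicate 1 MRPS18B, MRPL42 and MRPS18C were at 0.026, 0.019 and -0.020. Without vehicle replicate 2, MRPS18B, MRPL42, MRPS18C, MRPS30 and MRPS36 were at -0.095, -0.073, 0.101, -0.061 and -0.088. Replicates differed by more than counting error, since chi-square divided by its degrees of freedom came to 3.78 (vehicle) and 2.69 (EC359). Leaving out vehicle replicate 2 also moved GADD45GIP1 to 0.33 (adjusted p = 0.0041, edgeR), and leaving out vehicle replicate 1 moved it to 0.09.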

Other observations

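The readthrough gene URGCP-MRPS24 had 0 counts in all 4 libraries, beside 1 to 3 counts for MRPS24. Of the 50-base windows of MRPS24, 90.3% also occur in that readthrough gene at the same place, and reads that fall in both are left out of both, so these counts are no measure of MRPS24 expression. The largest differences between vehicle replicates among the 75 genes were log2 ratios of 0.35 for MRPL34, 0.33 for MRPL23 and 0.29 for MRPL41, and for the EC359 replicates MRPL34 and MRPL41 were at 0.26 and 0.31 and MRPL23 at -0.11. The median absolute difference between replicates was 0.08 for vehicle and 0.05 for EC359 over the 75 genes, and 0.08 and 0.07 over all genes.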
